A study of Homo sapiens with 10 samples.

Results

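The comparison described here set HAP1 cells that lack both OGG1 and MUTYH against wild-type (WT) HAP1 cells, with neither treated with hydrogen peroxide. It used 4 of the 10 RNA-seq libraries of the series, chosen by their labels: double knockout (DKO) clones 4 and 14 and WT clones 2 and 11, so n = 2 clones in each group. HAP1 cells are nearly haploid, descend from a chronic myeloid leukaemia and grow attached, and each library came from 1 clone. The DKO clones carry CRISPR-Cas9 disruptions of both genes, and the study's clone table gives the same OGG1-deficient clone as parent of both DKO clones. The product number of that parent ends in the number of the library called OGG1 22 here. The DKO clones therefore share a founder and its OGG1 deletion, and a difference fixed in that founder cannot be told apart from a difference made by the loss of both enzymes. The 2 OGG1-/- clones (1 and 22) and 2 MUTYH-/- clones (7 and 8) entered the model for the spread between clones, and their values stand beside those of the DKO where they bear on a result. DKO 4 and WT 11 were read as one pair and DKO 14 and WT 2 as the other. The labels do not say what a pair shares, and p-values measure the spread between these clones. In bulk RNA, more cells with a transcript and more of it in each cell cannot be told apart.

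OGG1 and MUTYH are DNA glycosylases of base excision repair. OGG1 excises 8-oxoguanine, the main oxidised form of guanine, where it lies opposite cytosine. MUTYH removes adenine that a polymerase has placed opposite 8-oxoguanine, so that the pair guards against G-to-T changes. Neither enzyme is a transcription factor, but 8-oxoguanine in promoters has been discussed as a mark that repair proteins read, and the comparison asks which transcripts differ when both enzymes are gone.

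The guide that made the OGG1 deletion is shown because it places the edit carried by both DKO clones. It matches chr3:9750311-9750330 (hg38, minus strand), inside the coding part of exon 1 of the MANE Select transcript OGG1-205 (GENCODE release 44). The capitals mark the protospacer-adjacent motif read from the genome.
OGG1 guide: gtacgatgccccatgcgcctGGG

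The transcript of neither target gene was lost in the DKO. OGG1 was at 12.2 and 13.1 CPM in WT 2 and WT 11 and 9.8 and 9.75 CPM in DKO 14 and DKO 4, and the fitted log2 fold change was -0.37 ± 0.75 (SE, adjusted p = 1). The parent library OGG1 22 held 11.2 CPM, whereas OGG1 1 held 1.23 CPM. MUTYH was at 4.66 and 3.96 CPM in WT 2 and WT 11 and 2.2 and 4.81 CPM in DKO 14 and DKO 4, with a log2 fold change of -0.30 ± 0.42 (SE, adjusted p = 1). Small deletions can leave a transcript in place, so RNA levels did not check the genotype labels of the DKO clones.

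Depth was alike in the 8 untreated libraries, between 22225091 and 22458937 counts assigned to genes, and scaling factors lay between 0.96 and 1.02. Levels are counts scaled to library size (CPM), in which 1 CPM is about 22 counts. The label of a leukaemia-derived line was set against markers: of 16 haematopoietic genes 5 passed the expression filter, PTPRC had at most 2 counts in any of the 4 libraries, and SPI1, MPO and CD3E were at 0 in all 4. Others were present, with KIT at 89 to 271 counts, RUNX1 at 151 to 296 and TAL1 at 47 to 792. No endothelial marker of 6 passed the filter. VIM and KRT18, markers of adherent mesenchymal and simple epithelial cells, had from 4405 to 8065 and from 618 to 1095 counts. Mitochondrially encoded transcripts took 4.25% of the counts in DKO 14, 5.02% in WT 2, 5.14% in WT 11 and 7.46% in DKO 4. Several abundant genes followed the pairs and not the genotype. HSP90B1, a chaperone of the endoplasmic reticulum, was at 947 and 1580 CPM in WT 2 and WT 11 and 944 and 1742 CPM in DKO 14 and DKO 4, so that DKO 14 resembled WT 2 and DKO 4 resembled WT 11.

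Of 59453 genes in the table, 17881 passed the expression filter and were tested. The study called a gene when it differed more than 2-fold and its P, before any adjustment, did not exceed 0.05. By this rule 317 genes (1.77%) were called in the DKO, of which 222 (1.24%) rose and 95 (0.531%) fell, and "called", "rose" and "fell" refer to it throughout. With the library side, which keeps each pair together, as a block, 313 genes (1.75%) rose and 123 (0.688%) fell. The sides of the single knockouts were taken from these same counts, so a pass with this block is not separate support. In the edgeR fit of 8 libraries no gene passed a Benjamini-Hochberg adjusted p of 0.05, with or without the block, and 12 genes passed in a fit of the 4 libraries alone blocked by pair, which has 1 residual degree of freedom. With 8 libraries the smallest adjusted p was 0.318, and it was 0.103 with the library side as a block. Without adjustment 526 genes (2.94%) reached 0.05, and 1308 (7.32%) did so with the block. DESeq2 gave 14 genes below an adjusted p of 0.05, among them GDF15, DHRS2, INHBE and ANKRD1 on the higher side and MGMT, FRMD4A, SETBP1 and SLIT3 on the lower side. Every call below therefore failed the correction in the edgeR fit of 8 libraries.

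Of the 222 genes that rose, 205 were more than 1.5-fold higher in each pair, and of the 95 that fell, 79 were more than 1.5-fold lower in each pair. The calls were made on the same 4 libraries, so this is a description that the calling rule largely fixes. Over all tested genes the shares were 2.94% and 1.31%. In 105 of the genes that rose both DKO libraries lay above all 6 other untreated libraries, and in 26 of those that fell both lay below all 6, against 3.31% and 2.89% of all tested genes, with the WT libraries again part of the choice. The spread among clones was large beside these numbers: 1555 genes differed more than 2-fold between the WT clones and 1450 between the DKO clones, and the differences in the pairs were weakly related across genes (Pearson r = 0.163, a description across genes, which are not independent replicates). Calls were most frequent at low expression. Of the 3577 genes with the lowest mean, up to 1.28 CPM, 3.21% rose, and of the 3576 with the highest, from 68.6 CPM, 0.0559% rose.

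**Figure D1:**
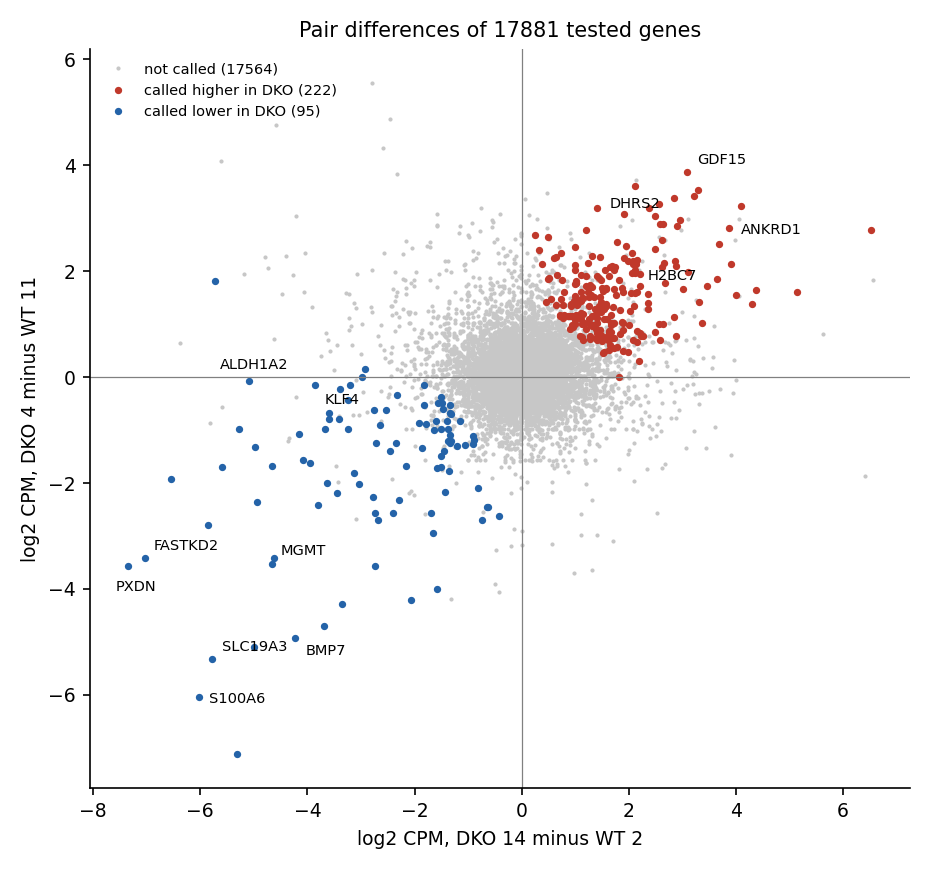
Difference in log2 CPM between DKO 14 and WT 2 (horizontal axis) and between DKO 4 and WT 11 (vertical axis) for the 17881 tested genes, 1 point per gene. The 222 genes that rose (red) lie mostly in the upper right and the 95 that fell (blue) mostly in the lower left, while ALDH1A2 and KLF4 lie near 0 on the vertical axis.

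Genes for replication-dependent histones had the highest share of genes that rose among the 60 lists examined. These genes encode the core histones and linker H1 that package newly made DNA. They have no introns, and their messages usually end at a conserved stem-loop in place of a poly(A) tail. Of 66 listed genes, 26 passed the expression filter and were tested. Of these 26, 12 rose and none fell, against 1.24% and 0.531% of all tested genes. The median log2 fold change was 0.99, and the pair medians were 1.17 for DKO 14 minus WT 2 and 0.85 for DKO 4 minus WT 11, against a median of 0.00 over all genes. By family, 6 of 10 H2B genes, 4 of 6 H4 genes, 1 of 5 H2A genes, the 1 tested H1 gene and 0 of 4 H3 genes rose. Both DKO libraries lay above both WT libraries in 21 of the 26, as in 13.5% of all tested genes, and above all 6 other untreated libraries in 15 of the 26, as in 3.31%. Their summed level was 26 and 43.2 CPM in WT 2 and WT 11, 70.1 and 78.5 in DKO 14 and DKO 4, 41.8 and 40 in OGG1 22 and OGG1 1, and 39.3 and 56.1 in MUTYH 8 and MUTYH 7. The DKO libraries had the highest sums of the 8.

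The stem-loop is printed for 6 of the genes that rose, since it is the feature at which these messages end. Each line gives 5 flanking bases in lower case on each side and the 16 bases of the stem-loop in capitals, written as DNA from hg38.
H4C9 (chr6:27139649-27139674, plus strand): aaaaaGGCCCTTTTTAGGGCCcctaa
H2BC12 (chr6:27146361-27146386, minus strand): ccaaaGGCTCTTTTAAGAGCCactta
H2BC11 (chr6:27132316-27132341, minus strand): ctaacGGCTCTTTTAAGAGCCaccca
H2BC8 (chr6:26216213-26216238, minus strand): tcaaaGGCTCTTTTCAGAGCCactca
H2BC18 (chr1:149811880-149811905, minus strand): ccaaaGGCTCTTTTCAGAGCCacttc
H1-2 (chr6:26055739-26055764, minus strand): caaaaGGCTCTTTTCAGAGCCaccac

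All 26 tested histone genes held such a stem-loop in a GENCODE transcript, compared with 115 of 61228 gene names, or 0.188%. The core of a stem-loop did not separate the genes: that of H4C9 occurred in 4 genes, 3 of which rose, and that of H2BC12 in 6 genes, 3 of which rose. Of the 12 genes that rose, 7 also have an annotated transcript that lacks the stem-loop or runs more than 100 bases past it, as do 4 of the 14 others. The count table does not separate the forms. H2BC18, H2AC6, H2BC7, H2BC8 and H4C8 overlap other annotated genes, so some of their reads may belong elsewhere.

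H4C9, an H4 gene of the chromosome 6 cluster, was at 1.69 and 2.76 CPM in WT 2 and WT 11 and 6.37 and 5.8 CPM in DKO 14 and DKO 4. Both DKO clones exceeded both WT clones, and the log2 fold change was 1.45 ± 0.32 (SE, adjusted p = 1). The single knockouts lay below the DKO, at 2.92 and 2.65 CPM in OGG1 22 and OGG1 1 and 3.35 and 3.54 CPM in MUTYH 8 and MUTYH 7, although neither difference passed adjustment (log2 1.13 and 0.82).

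H2BC12, an H2B gene, showed no overlap either. It was at 4.3 and 7.22 CPM in WT 2 and WT 11 and 11.6 and 11.8 CPM in DKO 14 and DKO 4, a log2 fold change of 1.02 ± 0.32 (SE, adjusted p = 1). H2BC11 was at 0.577 and 0.668 CPM in WT 2 and WT 11 and 1.45 and 2.77 CPM in DKO 14 and DKO 4 (log2 fold change 1.75, SE 0.46), again without overlap between the groups. DKO 4 was well above DKO 14.

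H4C14 was at 0.754 and 2.4 CPM in WT 2 and WT 11 and 4.88 and 4.94 CPM in DKO 14 and DKO 4, and its near-identical copy H4C15 gave almost the same counts, so that the pair counts as 1 observation. H2BC21 was at 0.754 and 2.9 CPM in WT 2 and WT 11 and 4.97 and 4.76 CPM in DKO 14 and DKO 4 (log2 fold change 1.41, SE 0.55). In each, WT 2 was the lowest library and WT 11 stood between it and the DKO clones. H2BC18 was level between the WT clones, at 0.266 and 0.267 CPM, and at 0.967 and 0.816 CPM in the DKO clones.

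Linker histone H1-2, which binds DNA between nucleosomes, was at 1.02 and 2.58 CPM in WT 2 and WT 11 and 5.14 and 4.49 CPM in DKO 14 and DKO 4 (log2 fold change 1.42, SE 0.56). H2AC6, an H2A gene, was at 0.887 and 2.49 CPM in WT 2 and WT 11 and 3.38 and 6.17 CPM in DKO 14 and DKO 4. For both genes WT 11 was the closer of the WT clones to the DKO. H2AC18 and H2AC19, a pair of near-identical copies, had log2 fold changes of 0.95 and 0.96, just short of the size criterion. H2BC7 had the largest fitted change, 2.84, on 1 and 2 counts in WT 2 and WT 11 and 12 and 11 in DKO 14 and DKO 4. It was at 0.5275 and 0.4988 CPM in DKO 14 and DKO 4, and at most 0.3522 CPM, in MUTYH 8, in the other untreated libraries. H2BC7 thus passed the expression filter through the DKO libraries alone, so its call, counted among the histone genes that rose, is partly fixed by the filter.

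None of the H3 genes was called. H3C8 was at 0.577 and 0.98 CPM in WT 2 and WT 11 and 1.01 and 2.18 CPM in DKO 14 and DKO 4. Its log2 fold change was 1.03 (SE 0.56), and its groups did not overlap. H3C14 and H3C15 gave almost the same counts, with log2 fold changes of 0.44 and 0.48, and count as 1 observation. H3C10 was at 0.266 and 0.713 CPM in WT 2 and WT 11 and 0.484 and 0.454 CPM in DKO 14 and DKO 4, and H2AC20 was at 1.33 and 0.312 CPM in WT 2 and WT 11 and 0.791 and 1.04 CPM in DKO 14 and DKO 4, so their groups overlapped. All values of the 26 genes lay between 0.0444 and 11.8 CPM. Without WT 2, 6 histone genes rose, and without DKO 4, 7 did.

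**Figure D2:**
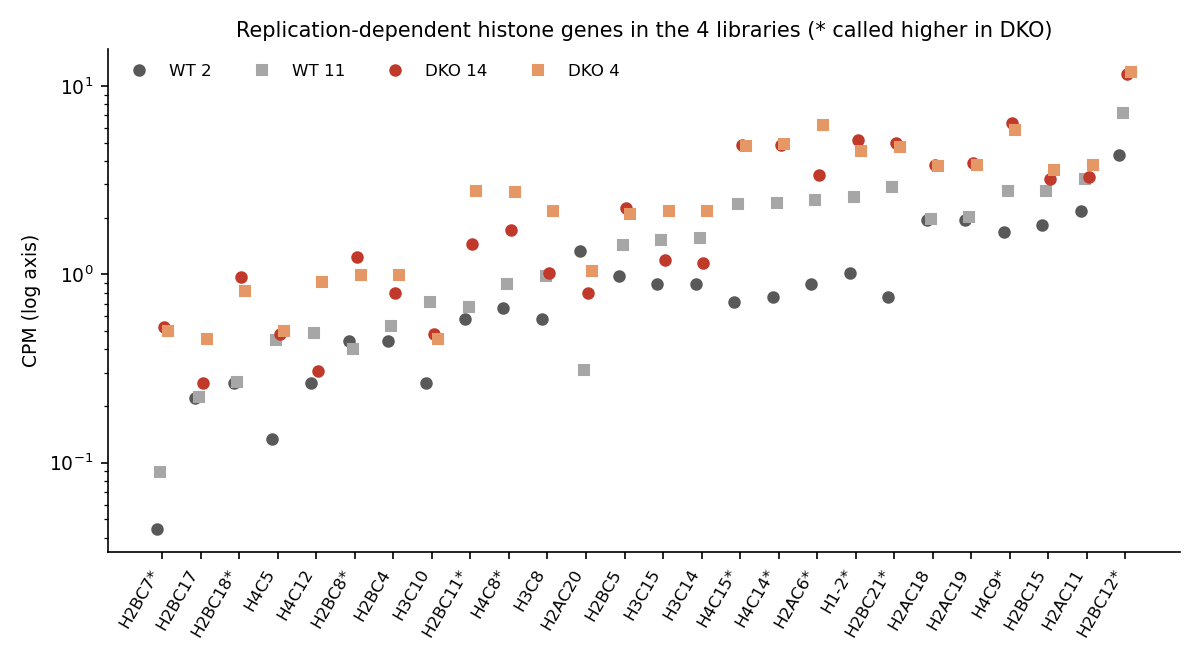
CPM on a log axis of the 26 tested replication-dependent histone genes in WT 2, WT 11, DKO 14 and DKO 4, ordered by WT level, 1 point per library, with an asterisk on the 12 genes that rose. The DKO points (red and orange) lie above the WT points (grey) in 21 of the 26 genes, and WT 2 is far below WT 11 in H4C14, H4C15, H2AC6, H1-2 and H2BC21.

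Genes that act with histones in S phase were not called. None of 47 DNA replication and S-phase genes was called (median log2 fold change -0.07), and none of 46 mitosis and G2/M genes (-0.05). SLBP, which binds the stem-loop, was at 177 and 147 CPM in WT 2 and WT 11 and 153 and 136 CPM in DKO 14 and DKO 4, and NPAT, the activator of histone gene transcription, was at 43.7 and 42.1 CPM in WT 2 and WT 11 and 45 and 43.5 CPM in DKO 14 and DKO 4. Neither was called. H2AZ1, a replication-independent histone with a polyadenylated message, was at 367 and 308 CPM in WT 2 and WT 11 and 336 and 247 CPM in DKO 14 and DKO 4. The sources used here do not give whether poly(A) RNA was selected, and the part of RNA selection in the histone difference was not tested.

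The promoters of 2 H2B genes and of H4C9 are shown because H2B promoters are known for a shared octamer element. Each run holds the 110 bases before the RefSeq start (GRCh38.p14), and capitals mark CCAAT, the octamer ATTTGCAT and TATAAA on either strand.
H2BC12 (chr6:27146859-27146968, minus strand): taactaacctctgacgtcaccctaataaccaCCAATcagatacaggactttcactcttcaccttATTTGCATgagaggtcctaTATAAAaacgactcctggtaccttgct
H2BC11 (chr6:27132796-27132905, minus strand): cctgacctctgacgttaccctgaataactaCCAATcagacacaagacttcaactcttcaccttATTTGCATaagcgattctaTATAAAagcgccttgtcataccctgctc
H4C9 (chr6:27139172-27139281, plus strand): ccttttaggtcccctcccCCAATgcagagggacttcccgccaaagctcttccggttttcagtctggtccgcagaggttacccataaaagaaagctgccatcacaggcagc

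The H2BC12 and H2BC11 promoters hold CCAAT, octamer and TATAAA in the same order and at nearly the same distances, and the stretch shown of H4C9 holds CCAAT alone of these. In windows from 250 bases before to 50 after the start, ATTTGCAT occurred in 8 of 10 H2B promoters and in 11 of all 26 histone promoters, against 492 of 27305 promoters (1.8%). CCAAT occurred in 21 of 26 against 35.7%, and TATAAA in 16 of 26 against 12%. Of the 12 genes that rose, the octamer was present in 7, CCAAT in 9 and TATAAA in 5, against 11, 21 and 16 of all 26. H2B genes made up 6 of these 12.

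GDF15, INHBE and RELB rose as 3 of 40 tested targets of ATF4 (7.5%, against 1.24% of all genes). The median of the list was near that of all genes. GDF15, a cytokine of the TGF-beta family released by stressed cells, was at 0.444 and 0.356 CPM in WT 2 and WT 11 and 4.44 and 6.44 CPM in DKO 14 and DKO 4. The groups did not overlap, and the log2 fold change was 3.75 ± 0.41 (SE, adjusted p = 0.318), with the smallest unadjusted P of any gene. GDF15 also exceeded the single knockouts, which were at 1.33 and 0.868 CPM in OGG1 22 and OGG1 1 and 0.484 and 0.558 CPM in MUTYH 8 and MUTYH 7. The log2 difference was 2.30 from OGG1-/- (adjusted p = 1) and 3.37 from MUTYH-/- (adjusted p = 0.177).

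INHBE, the inhibin beta E subunit secreted mainly by liver, was at 0.311 and 0.401 CPM in WT 2 and WT 11 and 2.37 and 2.86 CPM in DKO 14 and DKO 4 (log2 fold change 2.86, SE 0.38). Here the OGG1-/- clones stood in between, with 1.64 and 1.28 CPM in OGG1 22 and OGG1 1 and 0.44 and 0.465 CPM in MUTYH 8 and MUTYH 7. RELB, an NF-kappaB subunit, was at 1.11 and 2.36 CPM in WT 2 and WT 11 and 3.25 and 5.62 CPM in DKO 14 and DKO 4 (log2 fold change 1.35, SE 0.45). These 3 were the called members of the list of targets of ATF4, the factor that turns on amino acid synthesis and transport when translation initiation is restrained. The median of the 40 was 0.05.

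The defining members were not called. ATF4 itself was at 570 and 414 CPM in WT 2 and WT 11 and 503 and 412 CPM in DKO 14 and DKO 4. ASNS, which makes asparagine, was at 6.39 and 3.79 CPM in WT 2 and WT 11 and 3.78 and 3.76 CPM in DKO 14 and DKO 4, with WT 2 above the other clones. TRIB3, an inhibitor induced by ATF4, was at 47.3 and 34.4 CPM in WT 2 and WT 11 and 43.7 and 46 CPM in DKO 14 and DKO 4. The promoter of GDF15 is shown for comparison (capitals as above). The element TGATGNAA, the core that ATF4 and C/EBP proteins bind together, was searched on both strands.
GDF15 (chr19:18386048-18386157, plus strand): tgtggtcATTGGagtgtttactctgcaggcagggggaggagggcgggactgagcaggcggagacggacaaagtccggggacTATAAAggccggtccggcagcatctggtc

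TGATGNAA was not found in the window of GDF15 from 250 bases before to 50 after its start. It occurred in 7 of 33 promoters of the list, including ASNS, ATF3 and CHAC1, and in 3.67% of all promoters. None of 24 genes of the unfolded protein response, 20 heat shock chaperones or 20 cytosolic aminoacyl-tRNA synthetases was called.

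Responses to oxidative and genotoxic stress showed few calls. None of 29 NRF2 target genes, which serve antioxidant defence, was called. HMOX1, the haem-degrading enzyme, was at 9.58 and 9.04 CPM in WT 2 and WT 11 and 13.8 and 13.7 CPM in DKO 14 and DKO 4, and FTL, a ferritin subunit, was at 178 and 280 CPM in WT 2 and WT 11 and 340 and 405 CPM in DKO 14 and DKO 4. In both genes the DKO clones were above the WT clones, with log2 fold changes of 0.56 and 0.70, under the size criterion. In the single knockouts FTL was at 422 and 400 CPM in OGG1 22 and OGG1 1 and 358 and 505 CPM in MUTYH 8 and MUTYH 7. NQO1, a quinone reductase, was at 56.4 and 65.5 CPM in WT 2 and WT 11 and 46.6 and 63.5 CPM in DKO 14 and DKO 4. AKR1C1, which reduces carbonyls, passed with the library side as a block and not without it (log2 fold change 1.37 and 1.31).

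None of 22 enzymes that remove peroxide and superoxide was called. Of 13 tested glutathione transferases, which conjugate electrophiles, GSTM2 and GSTT2B rose (15.4%, against 1.24% of all genes). GSTM2 was at 3.24 and 2.63 CPM in WT 2 and WT 11 and 7.87 and 5.4 CPM in DKO 14 and DKO 4, and the single knockouts were at 7.61 and 4.98 CPM in OGG1 22 and OGG1 1 and 8.76 and 8.14 CPM in MUTYH 8 and MUTYH 7. GSTT2B has a near-identical copy, GSTT2, so reads may be split between them. Metallothionein MT1E, a metal-binding protein, was at 68.1 and 85.5 CPM in WT 2 and WT 11 and 50.9 and 44.5 CPM in DKO 14 and DKO 4, a log2 fold change of -0.69 with both DKO clones below both WT clones.

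None of the 28 tested genes of the p53 target list was called. That list did not hold GDF15, which was counted with the ATF4 and TGF-beta lists. CDKN1A, the cell cycle inhibitor p21, was at 7.85 and 3.96 CPM in WT 2 and WT 11 and 17.4 and 7.44 CPM in DKO 14 and DKO 4, and the groups overlapped. Within each pair the DKO was higher, and with the library side as a block CDKN1A passed, at a log2 fold change of 1.02. That block was partly drawn from these counts. CASP10, an initiator caspase of death receptors, rose as 1 of 30 tested apoptosis regulators (3.33%, against 1.24% of all genes). It had 7 and 2 counts in WT 2 and WT 11 and 33 and 20 in DKO 14 and DKO 4.

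DHRS2, a short-chain dehydrogenase of mitochondria and nucleus, had the second smallest P among genes that rose. It was at 1.38 and 1.69 CPM in WT 2 and WT 11 and 11.3 and 13.8 CPM in DKO 14 and DKO 4 (log2 fold change 3.03, SE 0.36). The single knockouts were at 1.77 and 2.1 CPM in OGG1 22 and OGG1 1 and 2.25 and 4 CPM in MUTYH 8 and MUTYH 7, so the DKO clones stood above all other clones (adjusted p = 0.918 against OGG1-/- and adjusted p = 0.698 against MUTYH-/-).

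Further genes with a small P had less known roles in these cells. DNAH3, a dynein heavy chain of cilia, had 7 and 4 counts in WT 2 and WT 11 and 45 and 52 in DKO 14 and DKO 4. SYT13, a synaptotagmin of vesicle traffic, had 2 and 1 and then 27 and 29 counts in the same order. Both were near 0 in WT and present in both DKO clones. APC2, a relative of the WNT regulator APC, had 213 and 209 counts in WT 2 and WT 11 against 470 and 414 in DKO 14 and DKO 4, and IRS4, an adaptor of insulin receptors, had 64 and 57 against 141 and 132. In POF1B, an actin-binding protein of epithelia, DKO 14 exceeded DKO 4, with 69 and 66 counts in the WT clones and 573 and 211 in DKO 14 and DKO 4.

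MGMT was the 1 call among the DNA repair genes, 29 of base excision repair and 56 of other pathways, a share close to the 1.77% of all genes. None of 29 base excision repair genes was called, and their median log2 fold change was -0.07. NEIL1, a glycosylase of oxidised bases, was at 44.7 and 50.8 CPM in WT 2 and WT 11 and 36.7 and 57.6 CPM in DKO 14 and DKO 4, with overlap. NTHL1, a glycosylase of oxidised pyrimidines, was at 27.7 and 26.7 CPM in WT 2 and WT 11 and 21.3 and 20.8 CPM in DKO 14 and DKO 4, lower in both DKO clones, and UNG, which removes uracil, was at 80.1 and 78.8 CPM in WT 2 and WT 11 and 95.6 and 80.8 CPM in DKO 14 and DKO 4, higher in both. NUDT1, which cleanses the nucleotide pool of oxidised dGTP, was at 23.8 and 20.7 CPM in WT 2 and WT 11 and 24.4 and 15.3 CPM in DKO 14 and DKO 4. PARP1, the sensor of strand breaks, was at 940 and 687 CPM in WT 2 and WT 11 and 719 and 663 CPM in DKO 14 and DKO 4, with WT 2 highest.

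MGMT, which removes methyl groups from guanine directly, belongs to the list of other repair pathways. It was at 3.28 and 4.59 CPM in WT 2 and WT 11 and 0.044 and 0.317 CPM in DKO 14 and DKO 4, and the log2 fold change was -4.41 ± 0.67 (SE, adjusted p = 0.777). Both OGG1-/- clones were low as well, whereas MUTYH-/- clones were above WT (0.752 and 0.776 CPM in OGG1 22 and OGG1 1 and 13.6 and 7.45 CPM in MUTYH 8 and MUTYH 7). The log2 difference of the DKO from OGG1-/- was -2.06 (adjusted p = 1).

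FRMD4A, SLIT3 and SETBP1 were also low in the DKO and in both OGG1-/- clones, including OGG1 1, which is not the parent. FRMD4A, a scaffold of epithelial polarity, was at 6.39 and 6.64 CPM in WT 2 and WT 11 and 1.14 and 1.04 CPM in DKO 14 and DKO 4 (log2 fold change -2.57, SE 0.31). The single knockouts were at 1.02 and 1.28 CPM in OGG1 22 and OGG1 1 and 12.9 and 8.94 CPM in MUTYH 8 and MUTYH 7. SLIT3, a secreted guidance cue, was at 6.34 and 4.99 CPM in WT 2 and WT 11 and 0.879 and 0.771 CPM in DKO 14 and DKO 4 (log2 fold change -2.77, SE 0.56), and SETBP1, which binds the oncoprotein SET, was at 13.8 and 10.6 CPM in WT 2 and WT 11 and 1.19 and 2.27 CPM in DKO 14 and DKO 4 (log2 fold change -2.82, SE 0.58). In OGG1 22 and OGG1 1, SLIT3 stood at 0.31 and 0.868 CPM and SETBP1 at 1.99 and 3.01 CPM. In MUTYH 8 and MUTYH 7, SLIT3 stood at 3.3 and 1.44 CPM and SETBP1 at 2.64 and 7.82 CPM, below both WT clones in each gene, so that for these genes the lower level was not particular to clones without OGG1. The log2 difference of the DKO from OGG1-/- was -0.07 in FRMD4A, 0.49 in SLIT3 and -0.53 in SETBP1, each with an adjusted p of 1. PRDM16, a transcription factor of brown fat and blood stem cells, and its divergent transcript PRDM16-DT both fell, PRDM16 from 16.1 and 7.84 to 3.21 and 1.5 CPM. OGG1 1 was at 7.35 CPM of PRDM16 and OGG1 22 at 3.5 CPM, so the OGG1-/- clones were not low alike. ZYG11A, a subunit of an E3 ubiquitin ligase, was lower in the DKO than in all 6 other clones, with 2.4 and 2.4 CPM in WT 2 and WT 11 and 0.791 and 0.68 CPM in DKO 14 and DKO 4 and 2.39 and 3.29 CPM in OGG1 22 and OGG1 1 and 2.73 and 5.77 CPM in MUTYH 8 and MUTYH 7.

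**Figure D3:**
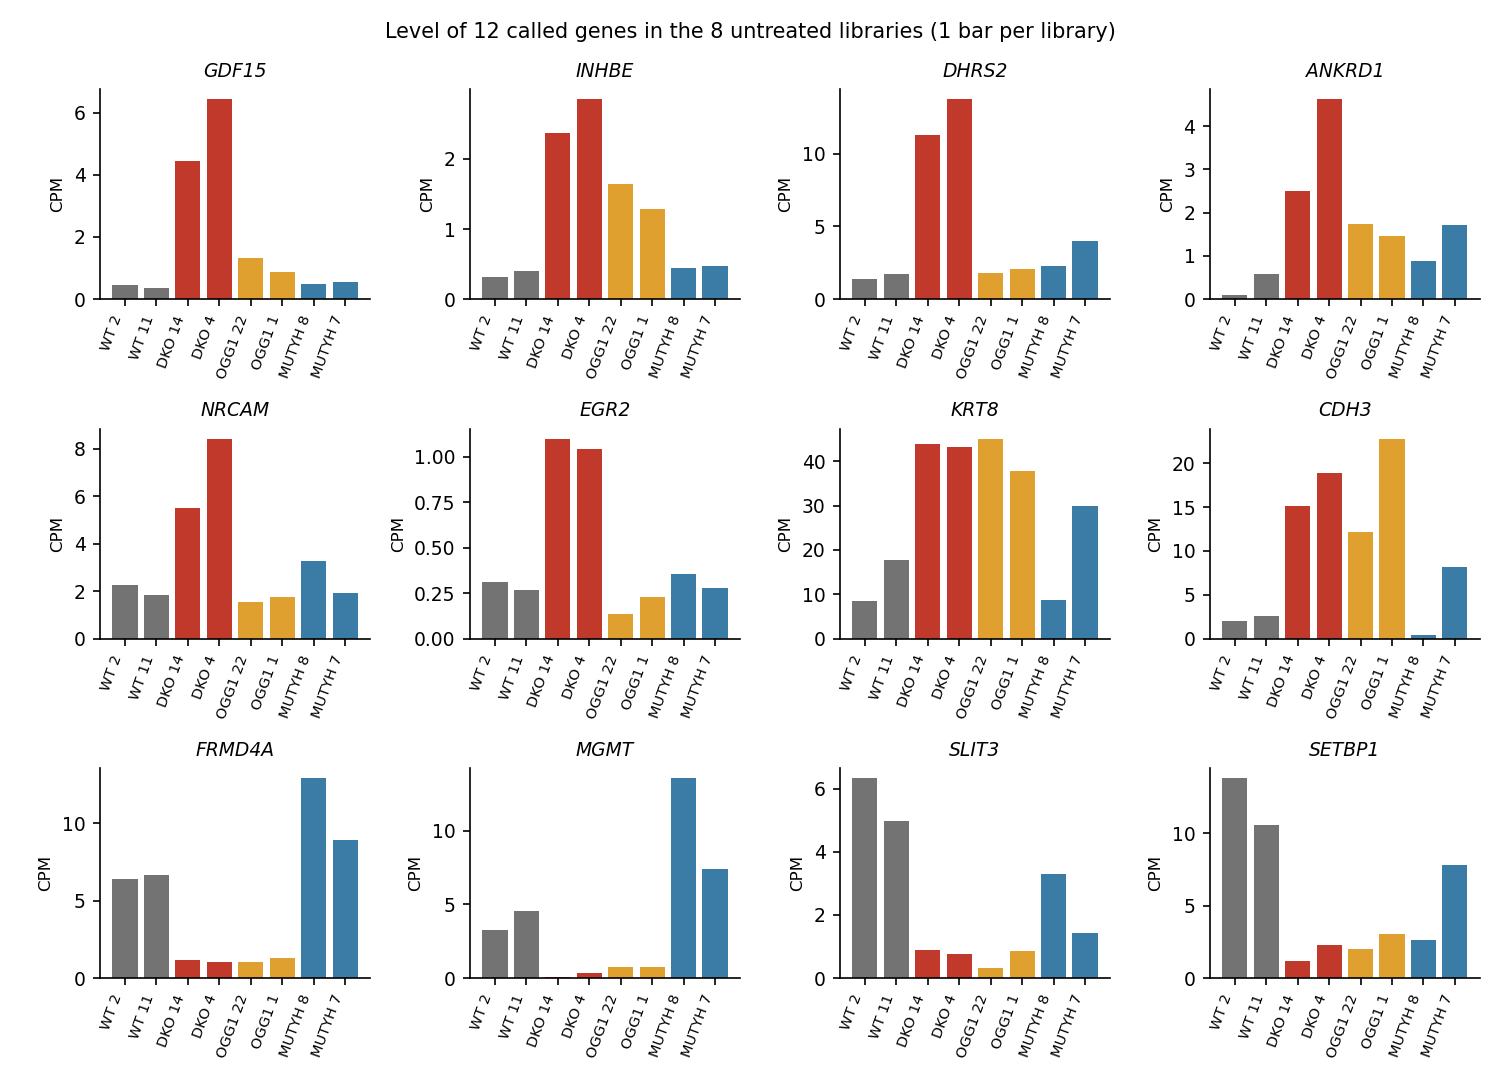
CPM of 12 called genes in each of the 8 untreated libraries, 1 bar per library and each panel with its own axis from 0, coloured by genotype (WT grey, DKO red, OGG1-/- yellow, MUTYH-/- blue). GDF15, DHRS2, NRCAM and EGR2 are highest in the DKO clones, KRT8 and CDH3 are as high in the OGG1-/- clones, and FRMD4A, MGMT and SLIT3 are low in DKO and OGG1-/- clones.

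Of 31 immediate early genes, which are switched on within minutes of a stimulus, 3 rose and 1 fell (9.68% and 3.23%, against 1.24% and 0.531% of all genes), and the lower call rests on WT 2. EGR2, a zinc finger factor, was at 0.311 and 0.267 CPM in WT 2 and WT 11 and 1.1 and 1.04 CPM in DKO 14 and DKO 4 (log2 fold change 1.87, SE 0.45), and it was low in all single knockouts (0.133 and 0.228 CPM in OGG1 22 and OGG1 1 and 0.352 and 0.279 CPM in MUTYH 8 and MUTYH 7). FOSB and FOSL2, partners of JUN in AP-1, rose by 1.29 and 1.29 on the log2 scale, from 1.06 and 1.51 to 2.29 and 4.04 CPM and from 1.46 and 2.94 to 4.84 and 5.94 CPM. FOSL2 was at 2.35 and 3.52 CPM in OGG1 22 and OGG1 1. In MUTYH 8 and MUTYH 7 it was near the DKO, at 7.13 and 5.26 CPM.

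The best known members were not called. FOS was at 1.77 and 1.43 CPM in WT 2 and WT 11 and 1.8 and 2.22 CPM in DKO 14 and DKO 4. JUN was at 11.4 and 6.77 CPM in WT 2 and WT 11 and 10.8 and 10.3 CPM in DKO 14 and DKO 4. EGR1 was at 13.4 and 10.7 CPM in WT 2 and WT 11 and 13.7 and 15.9 CPM in DKO 14 and DKO 4. KLF4, a pluripotency and differentiation factor, was called lower on 1 clone. It was at 67.2 and 4.77 CPM in WT 2 and WT 11 and 4.53 and 4.26 CPM in DKO 14 and DKO 4, and without WT 2 its log2 fold change was -0.12.

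Of 22 tested targets of YAP and TEAD, effectors of the Hippo pathway, ANKRD1, TGFB2 and MYOF rose, against 1.24% of all genes. ANKRD1 was at 0.0887 and 0.579 CPM in WT 2 and WT 11 and 2.51 and 4.63 CPM in DKO 14 and DKO 4 (log2 fold change 3.40, SE 0.74), and the single knockouts were in between (1.73 and 1.46 CPM in OGG1 22 and OGG1 1 and 0.88 and 1.72 CPM in MUTYH 8 and MUTYH 7). CCN1 and CCN2, the canonical targets, were not called. CCN2 was at 2.79 and 26 CPM in WT 2 and WT 11 and 10.7 and 38.3 CPM in DKO 14 and DKO 4, so that each pair showed a higher DKO but the groups overlapped.

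Of 20 tested genes of the TGF-beta and BMP list, GDF15, INHBE and TGFB2 rose, and BMP2 and BMP7 fell, against 1.24% and 0.531% of all genes. All of these are ligands or ligand subunits of the TGF-beta family, and GDF15 and INHBE were already counted in the ATF4 list. The list median was -0.00055. BMP7 was at 32.1 and 12.3 CPM in WT 2 and WT 11 and 1.63 and 0.317 CPM in DKO 14 and DKO 4 (log2 fold change -4.50, SE 1.58), and OGG1 1 held 54.6 CPM against 2.3 in OGG1 22. BMP2 was highest in WT 2, with 10 and 0.49 CPM in WT 2 and WT 11 and 0.308 and 0.0907 CPM in DKO 14 and DKO 4. It was at 0.0442 and 0 CPM in OGG1 22 and OGG1 1 and 3.52 and 0.0465 CPM in MUTYH 8 and MUTYH 7. Of the WNT and NOTCH lists, with 18 and 20 tested genes, the receptor FZD8 and the ligand DLL1 fell. These shares were 5.56% and 5%, against 0.531% of all genes. FZD8 was at 3.99 and 3.07 CPM in WT 2 and WT 11 and 1.1 and 1.63 CPM in DKO 14 and DKO 4, and DLL1 was at 9.54 and 12.3 CPM in WT 2 and WT 11 and 3.43 and 4.63 CPM in DKO 14 and DKO 4, both without overlap.

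Of 17 tested NF-kappaB and cytokine genes 2 rose (11.8%, against 1.24% of all genes) and none fell, namely ICAM1 and RELB, whose values stand above. ICAM1, an adhesion molecule induced by NF-kappaB, was at 1.33 and 1.92 CPM in WT 2 and WT 11 and 2.15 and 7.53 CPM in DKO 14 and DKO 4. Without DKO 4 its log2 fold change was 0.41. Of 36 interferon-stimulated and DNA-sensing genes, IFIT2 rose (2.78%, against 1.24% of all genes). It had 6 and 12 counts in WT 2 and WT 11 and 35 and 15 in DKO 14 and DKO 4. Without DKO 14 its log2 fold change was 0.74.

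Adhesion and cell identity genes changed in both directions. KRT8, a keratin of simple epithelia, rose with 8.47 and 17.6 CPM in WT 2 and WT 11 and 44 and 43.3 CPM in DKO 14 and DKO 4 (log2 fold change 1.74, SE 0.56). Its partner KRT18 was at 27.4 and 34.6 CPM in WT 2 and WT 11 and 45.2 and 49.7 CPM in DKO 14 and DKO 4, a log2 fold change of 0.61. Of the single knockouts, KRT8 was at 45.2 and 37.8 CPM in OGG1 22 and OGG1 1 and 8.8 and 30 CPM in MUTYH 8 and MUTYH 7, with the OGG1-/- clones near the DKO. CAV1, the coat protein of caveolae, was at 2.31 and 4.05 CPM in WT 2 and WT 11 and 10.3 and 12.4 CPM in DKO 14 and DKO 4 (log2 fold change 1.83, SE 0.66).

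EPCAM, an epithelial adhesion molecule, rose from 0.399 and 0.668 to 2.02 and 2.99 CPM. CDH3, or P-cadherin, was at 1.95 and 2.54 CPM in WT 2 and WT 11 and 15.2 and 18.9 CPM in DKO 14 and DKO 4 (log2 fold change 2.92, SE 1.03), with 12.1 and 22.8 CPM in OGG1 22 and OGG1 1 and 0.396 and 8.14 CPM in MUTYH 8 and MUTYH 7. NRCAM, a neuronal adhesion molecule, was at 2.26 and 1.83 CPM in WT 2 and WT 11 and 5.5 and 8.44 CPM in DKO 14 and DKO 4 (log2 fold change 1.76, SE 0.38) and was higher than in every single knockout clone (1.55 and 1.74 CPM in OGG1 22 and OGG1 1 and 3.26 and 1.91 CPM in MUTYH 8 and MUTYH 7). COTL1, an actin-binding protein and among the most expressed of the called genes, was at 55.5 and 54.5 CPM in WT 2 and WT 11 and 137 and 107 CPM in DKO 14 and DKO 4 (log2 fold change 1.15, SE 0.20). The single knockouts also exceeded both WT clones in COTL1. They were at 115 and 82.3 CPM in OGG1 22 and OGG1 1 and 84.4 and 86.3 CPM in MUTYH 8 and MUTYH 7.

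POSTN and FBLN2 were the called members of 48 matrix genes, both higher (4.17%, against 1.24% of all genes). POSTN, the matricellular protein periostin, was at 0.133 and 1.38 CPM in WT 2 and WT 11 and 3.25 and 6.35 CPM in DKO 14 and DKO 4, with WT 11 between WT 2 and the DKO. Of the 49 tested axon guidance genes, 3 fell, namely SLIT3, SEMA3A and EPHB1, against 0.531% of all genes. SEMA3A, a repulsive cue, was at 17.2 and 5.79 CPM in WT 2 and WT 11 and 2.42 and 1.13 CPM in DKO 14 and DKO 4, and EPHB1, an ephrin receptor, was at 5.72 and 0.757 CPM in WT 2 and WT 11 and 0.835 and 0.363 CPM in DKO 14 and DKO 4, so that in EPHB1 WT 2 stood apart from the other 3 clones.

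Of 48 patterning factors 2 rose and 2 fell, against 1.24% and 0.531% of all genes. EYA1, a transcriptional cofactor in ear and kidney development, was at 1.2 and 3.25 CPM in WT 2 and WT 11 and 14.2 and 10.9 CPM in DKO 14 and DKO 4 (log2 fold change 2.49, SE 0.68). In OGG1 22 and OGG1 1 EYA1 was at 8.14 and 11.6 CPM. IRX2 and IRX4, neighbouring homeobox genes, fell, with IRX2 at 3.64 and 0.846 CPM in WT 2 and WT 11 and 0.22 and 0.454 CPM in DKO 14 and DKO 4.

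In the retinoic acid list, 1 of 18 genes rose and 2 fell (5.56% and 11.1%, against 1.24% and 0.531% of all genes). ALDH1A2, which makes retinoic acid, was at 61.5 and 3.07 CPM in WT 2 and WT 11 and 1.71 and 2.9 CPM in DKO 14 and DKO 4, and RARB, its receptor, was at 4.48 and 0.401 CPM in WT 2 and WT 11 and 0.396 and 0.272 CPM in DKO 14 and DKO 4. WT 11 was close to the DKO clones in both genes. Without WT 2 the log2 fold changes were -0.42 and -0.26.

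Some transcripts present in both WT clones were nearly absent from both DKO clones. At 30 or more counts in both WT libraries and at most 3 in both DKO libraries there were 5 genes, and the reverse did not occur in any gene. Of the 5, 4 are described here. All 5 fell by the criterion, as the choice of the class implies, so their levels are a description.

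S100A6, a calcium-binding protein of proliferating cells, had 130 and 197 counts in WT 2 and WT 11 and 0 and 1 in DKO 14 and DKO 4. The ratio of WT to DKO was 326 (95% exact binomial interval 58 to 12900, counting error). OGG1 22, the parent by product number, had 1 count, whereas OGG1 1 had 187 and the MUTYH-/- clones 8 and 7 had 288 and 247. S100A6 was near 0 in DKO 14, DKO 4 and OGG1 22 and present in the other 5 libraries.

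SLC19A3, a thiamine transporter, had 109 and 79 counts in WT 2 and WT 11 and 0 in both DKO clones. At a floor of 3 counts per library this was at least 31.2-fold below the WT mean, 36.1-fold below WT 2 and 26.3-fold below WT 11. It had 2 counts in OGG1 22, 245 in OGG1 1 and 1 and 2 in MUTYH 8 and MUTYH 7. PTPRN2, a phosphatase-like protein of secretory vesicles, had 78 and 278 counts in WT 2 and WT 11 and 0 in both DKO clones. At that floor this was at least 59.2-fold below the WT mean, 25.9-fold below WT 2 and 92.5-fold below WT 11. PTPRN2 had 3 and 0 counts in OGG1 22 and OGG1 1 and 206 and 4 in MUTYH 8 and MUTYH 7. PXDN, a matrix peroxidase, had 329 and 34 counts in WT 2 and WT 11 and 0 and 1 in the DKO clones. It had 0 and 2 counts in OGG1 22 and OGG1 1 and 31 and 2 in MUTYH 8 and MUTYH 7.

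EGFR and FASTKD2 lay just outside this class. EGFR, the epidermal growth factor receptor, had 24 and 50 counts in WT 2 and WT 11 and 0 in both DKO clones. At a floor of 3 counts per library this was at least 12.3-fold below the WT mean, 7.96-fold below WT 2 and 16.6-fold below WT 11. FASTKD2, a mitochondrial RNA-binding protein, had 780 and 63 counts in WT 2 and WT 11 and 4 in each DKO clone. All 4 single knockout clones had at most 2 counts of FASTKD2.

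**Figure D4:**
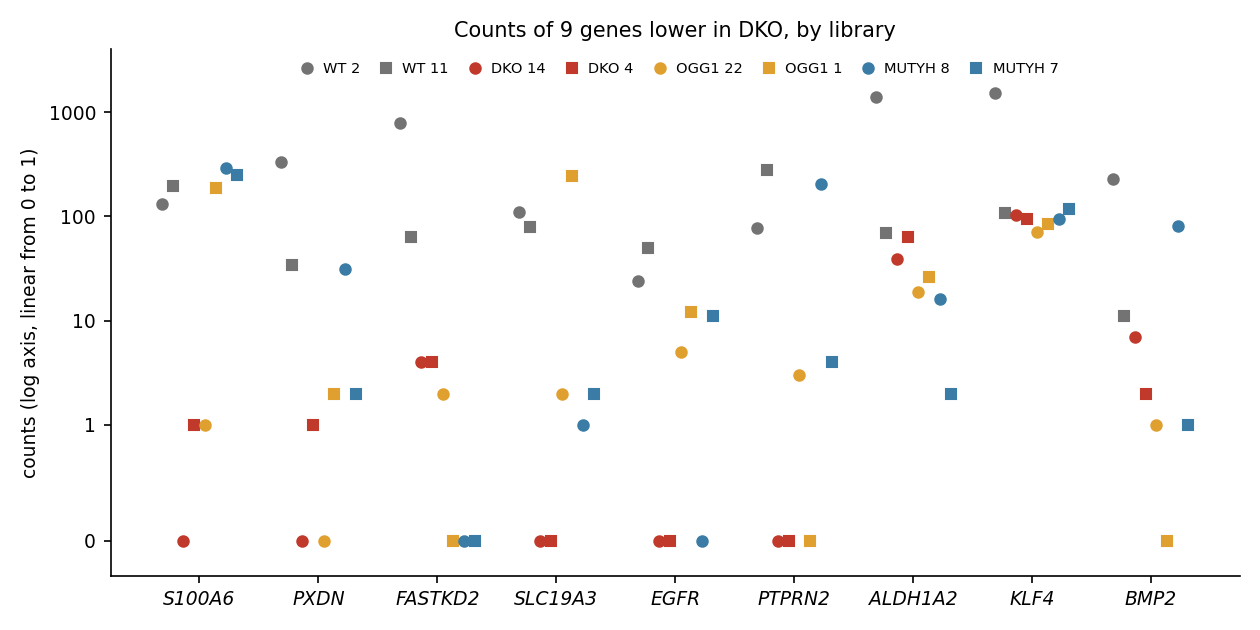
Counts of 9 genes lower in the DKO in each of the 8 untreated libraries, on an axis that is linear from 0 to 1 and logarithmic above, 1 point per library (WT grey, DKO red, OGG1-/- yellow, MUTYH-/- blue). S100A6 is near 0 in DKO 14, DKO 4 and OGG1 22 and present in the other 5 libraries, and KLF4, ALDH1A2 and BMP2 are highest in WT 2.

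Cholesterol genes had the lowest median of the 51 lists with 15 or more tested members. Of 25 tested cholesterol synthesis and uptake genes, 22 had a fitted change below 0, as did 49.8% of all genes. Such a lean to one side was not particular to this list. Above 0 were 24 of 28 p53 targets and 29 of 34 autophagy and lysosome genes. So were 78 of 85 cytosolic ribosomal protein genes and 35 of 37 mitochondrially encoded genes. INSIG1 fell (4%, against 0.531% of all genes). Of the 25, 6 had an unadjusted P of at most 0.05 with a lower level, against 1.11% of all genes. The median log2 fold change was -0.41, and the pair medians were -0.60 for DKO 14 minus WT 2 and -0.17 for DKO 4 minus WT 11. Their summed level was 3693 and 3289 CPM in WT 2 and WT 11 and 2523 and 2991 CPM in DKO 14 and DKO 4. It was 2958 and 3552 CPM in OGG1 22 and OGG1 1, so the parent library lay between the DKO clones. Within a library side, DKO 14 was below OGG1 22 and DKO 4 was below OGG1 1. In MUTYH 8 and MUTYH 7 it was 3121 and 4047 CPM.

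INSIG1, which retains the sterol sensor in the endoplasmic reticulum, was at 132 and 67.2 CPM in WT 2 and WT 11 and 47.8 and 44 CPM in DKO 14 and DKO 4 (log2 fold change -1.12, SE 0.31). Without WT 2 its log2 fold change was -0.55. MVD, an enzyme of the mevalonate pathway, was at 81.3 and 58.4 CPM in WT 2 and WT 11 and 33.4 and 37.5 CPM in DKO 14 and DKO 4 (log2 fold change -0.98, SE 0.18), just under the size criterion and without overlap. HMGCS1, which makes the mevalonate precursor, was at 315 and 196 CPM in WT 2 and WT 11 and 166 and 151 CPM in DKO 14 and DKO 4, with WT 2 above the other clones.

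Of 22 fatty acid and lipid synthesis genes none was called, and their median was -0.17. SREBF1, the factor that activates them, was at 246 and 191 CPM in WT 2 and WT 11 and 106 and 130 CPM in DKO 14 and DKO 4 (log2 fold change -0.89, SE 0.22), and SCD, a fatty acid desaturase, was at 1371 and 1118 CPM in WT 2 and WT 11 and 778 and 828 CPM in DKO 14 and DKO 4. Both DKO clones lay below both WT clones in each. Summed over the 22 genes, WT 2 and WT 11 were at 6003 and 5566 CPM and DKO 14 and DKO 4 at 4001 and 4742 CPM. OGG1 22 and OGG1 1 were at 4585 and 6037 CPM, so the parent library again lay between the DKO clones. Within a library side, each DKO clone was again below the OGG1-/- clone. MUTYH 8 and MUTYH 7 were at 4970 and 6152 CPM.

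None of 23 glycolysis genes, 25 tricarboxylic acid cycle enzymes or 72 nuclear-encoded respiratory chain subunits was called. None of the 85 cytosolic ribosomal protein genes was called, with a median of 0.17 and pair medians of 0.29 and 0.02 in the same order. The 37 mitochondrially encoded genes had pair medians of -0.01 and 0.51, beside the mitochondrial shares of 4.25% in DKO 14 and 7.46% in DKO 4 given above.

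Among imprinted genes, PLAGL1 and L3MBTL1 rose and MKRN3 fell, of 19 tested (10.5% and 5.26%, against 1.24% and 0.531% of all genes). PLAGL1, a growth-suppressing zinc finger protein, was at 0.754 and 0.935 CPM in WT 2 and WT 11 and 1.54 and 1.95 CPM in DKO 14 and DKO 4, and MKRN3, which holds back puberty, had 18 and 46 counts in WT 2 and WT 11 against 1 and 2 in DKO 14 and DKO 4. None of 40 DNA methylation and chromatin modifier genes was called, and DNMT1, the maintenance methyltransferase, was at 370 and 399 CPM in WT 2 and WT 11 and 336 and 398 CPM in DKO 14 and DKO 4. Of 435 ZNF zinc finger genes 1 rose, ZNF532 (0.23%, against 1.24% of all genes).

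The other lists held few calls, to be read beside the 1.24% of all genes that rose and the 0.531% that fell. None was called among 32 MYC target and ribosome biogenesis genes, 31 proteasome subunits, 24 hypoxia response genes, 17 iron genes, 34 autophagy and lysosome genes and 85 mitochondrial ribosomal protein genes. HOXD10, a limb and spinal patterning gene, rose as 1 of 33 HOX genes, from 5 counts in each WT clone to 18 and 20 in DKO 14 and DKO 4. PCDHGB2, a clustered protocadherin, fell as 1 of 26, with a list median of -0.38, although the protocadherin genes of a cluster share exons and their reads may be split. Of 6 cancer-testis genes DAZL, a germ cell RNA-binding protein, fell from 409 and 687 counts to 265 and 122. Of 246 solute carriers 1 fell, SLC19A3.

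**Figure D5:**
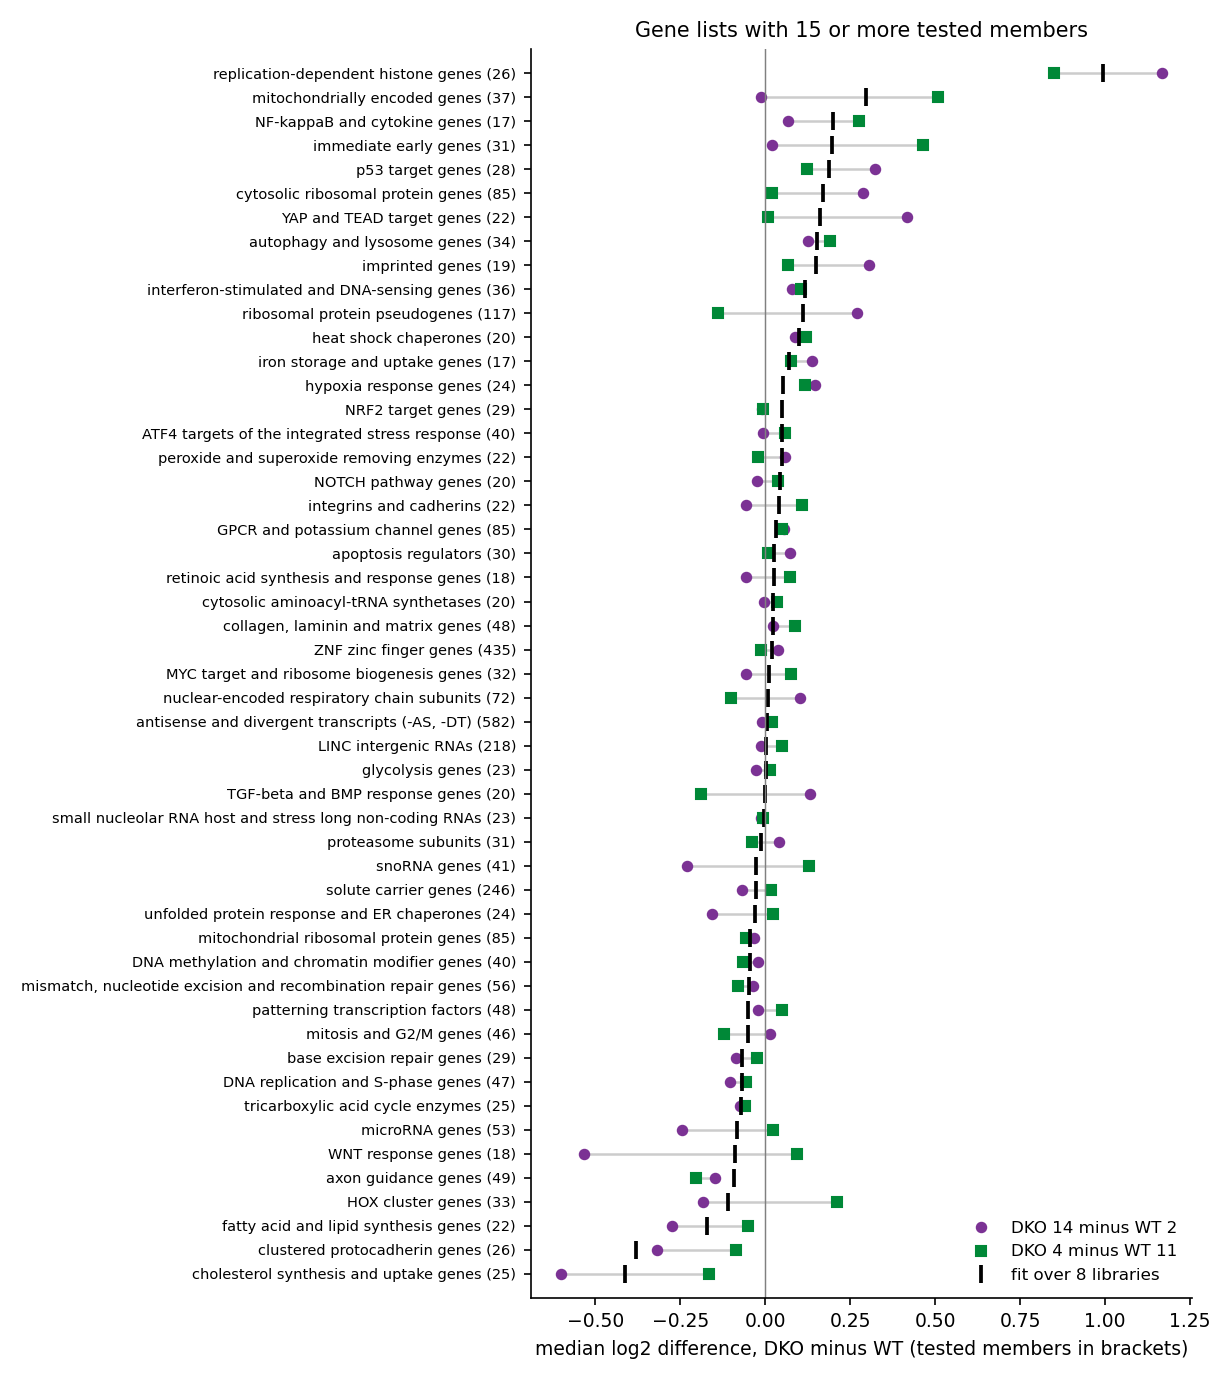
Median log2 difference of the tested members of 51 gene lists with 15 or more tested members, for DKO 14 minus WT 2 (circles), DKO 4 minus WT 11 (squares) and the fit over 8 libraries (bars), with the number of tested members in brackets. Replication-dependent histone genes stand near 1 in both pairs, and cholesterol genes are lowest, with a larger difference in the pair of WT 2.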

How the data were processed

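Total RNA of 10 HAP1 libraries was sequenced on the DNBseq platform. The deposited values used here are raw counts per gene: the authors aligned reads with HISAT2 2.2.1 to GRCh38.p13 and counted them with Rsubread on Ensembl release 103. Strand and multi-mapping settings are not given in the sources used here, so overlapping and near-identical genes are uncertain. A second deposited table, with peroxide-treated WT cells, was not used.

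Counts of the 8 untreated libraries were filtered with filterByExpr, scaled by TMM and fitted with edgeR 4.0.16 (quasi-likelihood F-test, legacy settings, R 4.3.3) by genotype, with 4 residual degrees of freedom. Some called genes, such as H2BC7, SYT13, DNAH3 and EGR2, passed the filter through the DKO libraries alone. CPM values use the TMM-scaled library size. Pair differences are log2 CPM with a prior count of 2. P-values were adjusted over all 17881 genes. The common biological coefficient of variation was 0.255 and fell to 0.168 with the library side, which puts each pair on one side, as a block. The sides of the single knockouts came from these counts and not from the labels. The fit was tested on simulated counts. Alternatives included DESeq2 1.42.0, other scalings and filters, and leaving out each library.

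Named genes were the targets, the 15 genes with the smallest P in each direction (groups without overlap, pair differences of one sign, mean of at least 1 CPM in either group), called members of each list (at most 8), and the 2 most expressed members of lists without a call. Other genes named, such as HMOX1, SLBP, MVD, EPCAM, PTPRN2 and CDKN1A, were chosen after their values were seen. The comparison, members and all 60 lists were chosen with earlier results of these data known. Positions and stem-loops come from GENCODE release 44 (85.1% of tested genes matched) and promoters from RefSeq. Intervals and floors cover counting error only. A few named genes are not reported here.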

Additional observations from a re-analysis of the deposited data

How the results depend on the processing

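With 2 clones per group, the number of calls depended on the filter and on which clone was left out. Without a filter 705 genes were called (445 higher, 260 lower), and with at least 10 counts in every library 134 (99 higher, 35 lower). The replicate block by library side gave 436 calls (313 higher, 123 lower), and a fit of the 4 libraries with a replicate block by pair gave 483 (340 higher, 143 lower). Leaving out 1 library in turn, with or without the block, gave 260 to 875 calls, 165 to 508 higher and 71 to 367 lower, of which 52.9% to 76.4% were higher. Without WT 11, 673 genes were called, and the lowest share of higher calls came without DKO 4. Histone genes that rose ranged from 6 to 13 over these fits and were 12 under the block. An adjusted p of at most 0.05 was reached by 12 genes in the 4 libraries with the replicate block by pair (1 residual degree of freedom), by 14 with DESeq2 and by 0 to 3 when 1 library was left out. The correlation of the pair differences was 0.174 and 0.157 with prior counts of 0.5 and 5, 0.126 with at least 10 counts, and -0.0623 with the pairs crossed. The median of all genes lay at most 0.0217 from 0 under another scaling. None of the called genes among the 147 named by the rule changed direction under an alternative that tested it, whereas several uncalled ones did, MUTYH and OGG1 among them. Leaving out WT 2 cost the call of 44 of 147 named genes, DKO 4 of 38, DKO 14 of 31 and WT 11 of 18. The 147 include uncalled genes, which had no call to lose, so a larger share of the calls was lost than these counts show. The cause was not tested.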

Other observations

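Of 938 long non-coding RNA genes, 17 rose (1.81%) and 10 fell (1.07%), and of 13341 protein-coding genes 170 rose (1.27%) and 64 fell (0.48%). SETBP1-DT, which starts next to SETBP1 on the other strand, had 11 and 11 counts in WT 2 and WT 11 and 0 in both DKO clones. MIR4435-2HG, a long host transcript on chromosome 2, counted 3.42 and 3.38 CPM in WT 2 and WT 11 and 6.86 and 9.98 CPM in DKO 14 and DKO 4, and the OGG1-/- and MUTYH-/- clones lay between 5.4 and 9.55 CPM. LINC01694 was high in WT 2, with 38.6 and 4.81 CPM in WT 2 and WT 11 and 2.42 and 1.5 CPM in DKO 14 and DKO 4.

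Median log2 fold changes of autosomes and X lay between -0.05 on chromosome 1 and 0.10 on chromosome 20, and on chromosome 20 the pairs gave 0.09 for DKO 14 minus WT 2 and 0.07 for DKO 4 minus WT 11. On chromosome 1 they gave -0.09 and 0.00. By GC content of the transcript, 0.624% of the 3045 genes with the lowest GC rose, and between 1.22% and 1.51% in each of the 4 groups of like size above.

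TAL1, a blood stem cell factor, had 47 counts in WT 2 and between 749 and 792 in the other 3 clones. KIT, a stem cell receptor, had 261 and 271 counts in WT 2 and WT 11 and 89 and 186 in DKO 14 and DKO 4. CD34 rose from 3 and 4 counts to 15 and 23.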
